A study of Homo sapiens with 30 samples.

Results

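AXIN2 and 9 other genes of the Wnt/β-catenin pathway were followed across 10 groups of A549 cells. A549 is a long-established line derived from a human adenocarcinoma of the lung. AXIN2 was chosen on its lower measured level under magnetic exposure in 2 backgrounds named KOA and iR_KOA, so its exposure values are a description with no test. The other members were listed as partners of AXIN2 in the pathway: AXIN1, CTNNB1, DKK1, LRP6, RNF43, ZNRF3, TCF7, TCF7L2 and LEF1. They were proposed with earlier results of these data known, so their p-values are not free of that choice. All 10 symbols were found among the 26801 genes of the deposited table, and 8 of them passed the filter for testing. This filter asked for at least 1 FPKM (fragments per kilobase of gene, relative to the total of the library) in at least 3 libraries. TCF7 and LEF1 did not pass it and are given mainly by their values. TCF7 was also tested on reads recovered from the FPKM values, and both genes entered the fit without the filter. AXIN2 (NCBI gene 8313) is at chr17:65528563-65561648 in GRCh38.p14, the RefSeq build used for all positions here.

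Polyadenylated RNA was sequenced in 30 libraries, 3 per group, and the study concerns RSRP1 in the response of lung cancer cells to a magnetic field. Exposed groups (EX) received a magnetic exposure labelled 2 H, and unexposed groups (NE) received none. The pair of groups was made in 5 backgrounds: KOA, iR_KOA and iR_KOA_D3 carry the genotype RSRP1 KO, and iR_WTA and iR_WTA_D3 are WT. All groups are A549 cells. What iR and D3 stand for, how strong the field was and whether the knockout is 1 clone are not stated by the labels. A WT background without iR was not analysed here. Nothing in the labels says that the 3 libraries of a group are separate cultures. The p-values therefore reflect how far these libraries scatter, which may be technical.

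In canonical Wnt signalling, a ligand brings a Frizzled receptor and the co-receptor LRP6 together, which stops a complex built on the scaffold proteins AXIN1 and AXIN2 from marking β-catenin for destruction. β-catenin then enters the nucleus and activates genes with DNA-binding partners of the TCF/LEF family. Several of those genes restrain the pathway in turn: AXIN2 rebuilds the destruction complex, DKK1 is secreted and blocks LRP6, and the ligases RNF43 and ZNRF3 remove Frizzled receptors from the cell surface. AXIN2 is for that reason widely used as a readout of the pathway.

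Promoter windows of 300 bases, from 250 before to 50 after an annotated start, were available in RefSeq (GRCh38.p14) for 7 members with 11 windows between them: AXIN1, CTNNB1, DKK1, RNF43, TCF7, TCF7L2 and LEF1. AXIN2, LRP6 and ZNRF3 had no window. The word ATCAAAG was searched on both strands, together with the word TTCAAAG, the word AACAAAG and the word TACAAAG. All are forms of the TCF/LEF recognition sequence. DKK1 held 2 of them, CTTTGAA at 95 bases and CTTTGTT at 76 bases before the start, both as the reverse complement. TCF7 and TCF7L2 each had 1 word in 1 of their windows, and 4829 of all 35116 windows in the table (13.8%) held at least 1. A match describes the letters and is not a binding site, and no relation of the words to the exposure values was tested. The DKK1 window, chr10:52314031-52314330 on the plus strand, is shown with its words in capitals, above that of the scaffold gene AXIN1, chr16:352674-352973 on the minus strand, which held none of these words.
DKK1: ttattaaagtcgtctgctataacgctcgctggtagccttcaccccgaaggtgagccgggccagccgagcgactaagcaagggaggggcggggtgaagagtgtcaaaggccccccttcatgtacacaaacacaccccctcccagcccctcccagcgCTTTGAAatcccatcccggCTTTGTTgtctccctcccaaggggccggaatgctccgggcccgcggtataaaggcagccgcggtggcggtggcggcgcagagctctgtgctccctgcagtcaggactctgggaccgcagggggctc
AXIN1: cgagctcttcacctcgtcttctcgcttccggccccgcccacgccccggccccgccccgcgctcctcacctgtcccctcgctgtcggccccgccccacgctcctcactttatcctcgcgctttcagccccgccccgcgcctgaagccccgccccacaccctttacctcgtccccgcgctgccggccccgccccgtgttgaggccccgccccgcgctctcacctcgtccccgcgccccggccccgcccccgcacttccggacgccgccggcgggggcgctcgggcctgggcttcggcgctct

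RSRP1 itself ran from 2.09 to 7.95 FPKM in the 18 libraries labelled knockout and from 37.4 to 63.4 FPKM in the 12 labelled WT. Within the knockout it ran from 2.09 to 2.70 FPKM in KOA and from 5.80 to 7.95 FPKM in iR_KOA and iR_KOA_D3. The knockout backgrounds with and without iR therefore differed in residual RSRP1 too. Library totals implied by the values were 34620445 to 38939339 reads. All 12 marker genes of A549 cells were detected, though KRT19 had a median of 0.13 FPKM. Of 11 genes that mark other lung cell types, PTPRC, PECAM1, VWF, COL3A1, DCN and PDGFRA stayed at or below 0.053 FPKM. SFTPC reached 0.29 FPKM and CDH5 1.29 FPKM, and COL1A1 ran from 0.44 to 3.71 FPKM with no library at 0. CD68 (23.7 to 39.6 FPKM) and CD14 (1.05 to 17.9 FPKM) made up most of the summed level of 31.4 to 48.0 FPKM. In bulk RNA, fewer cells that express a gene and less RNA per cell cannot be told apart.

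AXIN2 was lower in exposed than in unexposed cells in all 5 backgrounds, with no overlap between the libraries. In KOA it had 2.20, 2.02 and 2.51 FPKM in exposed libraries, against 5.83, 5.58 and 5.83 FPKM in unexposed ones. In iR_KOA the exposed libraries held 1.36, 1.26 and 1.75 FPKM and the unexposed ones 3.95, 3.50 and 4.54 FPKM. These are the backgrounds on which the gene was chosen, and the exposed mean stood at −61.0% and −63.6% relative to the unexposed mean in them. With D3, the knockout had 2.63, 2.87 and 2.94 FPKM when exposed and 5.06, 4.81 and 4.62 FPKM when not exposed. The wild type gave 1.17, 1.33 and 1.45 FPKM in exposed iR_WTA libraries, against 2.38, 2.63 and 2.63 FPKM in unexposed ones. In iR_WTA_D3 the 3 exposed libraries lay at 1.93, 1.97 and 1.92 FPKM, against 3.44, 3.50 and 3.29 FPKM in the unexposed ones. The exposed mean differed from the unexposed mean by −41.7% in iR_KOA_D3, −48.2% in iR_WTA and −43.1% in iR_WTA_D3.

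**Figure D1:**
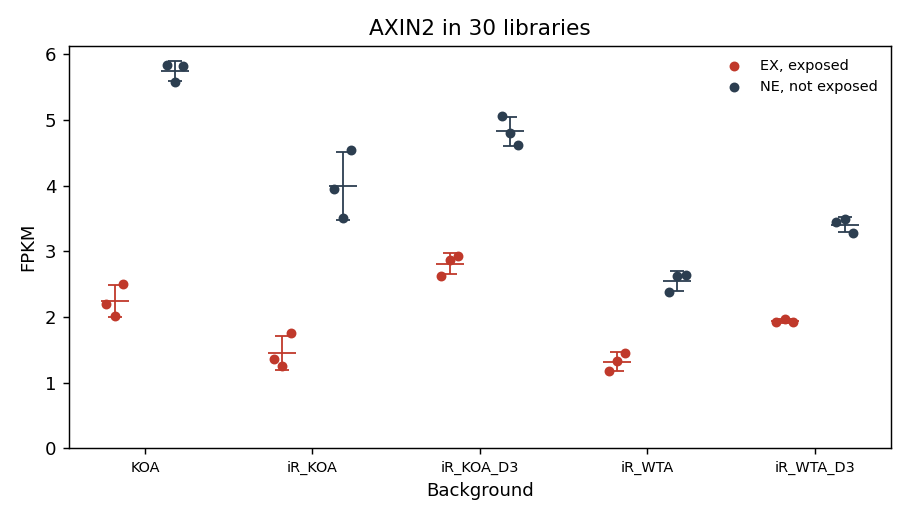
AXIN2 in FPKM (vertical axis, from 0) in each library (points) of the 5 backgrounds, exposed on the left of each pair and unexposed on the right; horizontal marks are means and bars 1 SD (n = 3). Every exposed group lies below its unexposed partner, from 1.32 against 2.55 FPKM in iR_WTA to 2.24 against 5.75 FPKM in KOA.

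On the log2(FPKM + 1) scale, exposed minus unexposed, AXIN2 differed by −1.06 in KOA, −1.03 in iR_KOA, −0.61 in iR_KOA_D3, −0.61 in iR_WTA and −0.58 in iR_WTA_D3 (SE 0.07 each). Counted from the most negative difference of 12086 genes, it was at rank 5, 2, 147, 34 and 192. The ranks in KOA and iR_KOA restate the choice of the gene on these backgrounds. The share of all genes whose exposed libraries were all below the unexposed ones was 32.2% in KOA, 25.5% in iR_KOA, 33.3% in iR_KOA_D3, 26.3% in iR_WTA and 29.5% in iR_WTA_D3. The pseudocount of 1 reduces differences of a gene at this level: on the scale of recovered reads the same contrasts were −1.36, −1.47, −0.78, −0.95 and −0.81. The values rested on 237 to 1147 reads per library over a gene length of 5378 bases.

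Ordered by group mean, AXIN2 was highest in unexposed KOA (5.75 ± 0.15 FPKM, SD, n = 3), followed by unexposed iR_KOA_D3 (4.83 ± 0.22 FPKM), unexposed iR_KOA (4.00 ± 0.52 FPKM) and unexposed iR_WTA_D3 (3.41 ± 0.11 FPKM). Below these came exposed iR_KOA_D3 (2.81 ± 0.16 FPKM), unexposed iR_WTA (2.55 ± 0.15 FPKM), exposed KOA (2.24 ± 0.25 FPKM) and exposed iR_WTA_D3 (1.94 ± 0.03 FPKM). Exposed iR_KOA (1.46 ± 0.26 FPKM) and exposed iR_WTA (1.32 ± 0.14 FPKM) were lowest. The libraries overlapped between exposed iR_KOA_D3 and unexposed iR_WTA, between unexposed iR_WTA and exposed KOA, and between the 2 lowest groups. Unexposed iR_KOA and unexposed iR_WTA_D3 all but met, with the lowest library of the first at 3.504 FPKM and the highest of the second at 3.496 FPKM. The highest group mean was 4.36 times the lowest.

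Of the 7 other members tested under exposure with limma, 3 passed an adjusted p of 0.05 in KOA (41.5% of all genes did), 5 in iR_KOA (35.3%), 5 in iR_KOA_D3 (45.1%), 4 in iR_WTA (28.6%) and 3 in iR_WTA_D3 (41.8%). DKK1 and LRP6 passed in all 5 backgrounds, in opposite directions. Since the members were proposed with exposure results known, nothing is read from these counts. The exposure p-values of single members given below carry the same limit. When only the 2 groups of a comparison were fitted, 1 member passed in each of iR_KOA, iR_WTA and iR_WTA_D3. Mitochondrially encoded genes made up 24.4% ± 1.0 of the FPKM sum in exposed and 28.4% ± 1.3 in unexposed KOA libraries (SD, n = 3). The markers of other cell types summed to 39.1 to 40.8 FPKM in exposed and 46.3 to 46.9 FPKM in unexposed iR_KOA_D3 libraries. The part of these in the members' differences was not tested. The plot of exposure differences shows AXIN2 and DKK1 to the left of zero and LRP6 to the right in every panel.

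**Figure D2:**
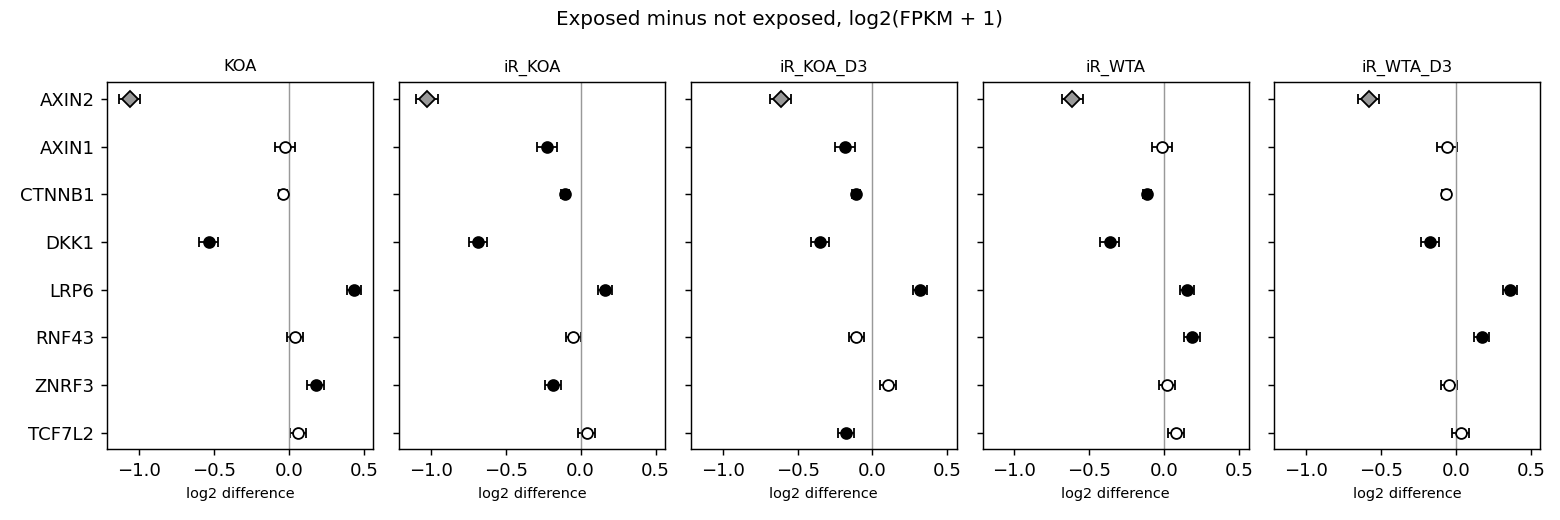
Exposed minus unexposed difference in log2(FPKM + 1) (horizontal axis) for the 8 fitted members (vertical axis) in the 5 backgrounds (panels); bars are SE from the limma fit. Filled circles passed an adjusted p of 0.05, open circles did not, and grey diamonds mark AXIN2, which was not tested; LRP6 was the highest member in KOA at 0.43 and AXIN2 the lowest at −1.06.

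DKK1 (chr10:52314281-52317657), the secreted antagonist of LRP6, was among the more abundant members and fell with exposure in every background. In KOA its exposed libraries held 143, 151 and 150 FPKM, against 213, 220 and 211 FPKM in unexposed ones. In iR_KOA the values were 89.6, 106 and 108 FPKM when exposed and 162, 167 and 159 FPKM when not exposed. The knockout with D3 had 119, 132 and 136 FPKM when exposed, against 162, 167 and 164 FPKM when not exposed. Exposed libraries lay below unexposed ones throughout these 3 backgrounds. Between 25.5% and 33.3% of all genes were separated in this way in each of the 5 backgrounds. In the wild type, iR_WTA gave 49.4, 49.4 and 52.5 FPKM with exposure and 63.0, 68.0 and 64.8 FPKM without it, again with no overlap. In iR_WTA_D3 the exposed libraries were at 64.7, 63.4 and 75.4 FPKM and the unexposed ones at 77.7, 75.4 and 75.8 FPKM. These groups all but met, with the highest exposed library at 75.4334 FPKM and the lowest unexposed one at 75.4348 FPKM.

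The log2 differences of DKK1 were −0.54 in KOA (SE 0.06, limma adjusted p 9.25e-08), −0.68 in iR_KOA (6.26e-09), −0.35 in iR_KOA_D3 (4.45e-05), −0.37 in iR_WTA (5.46e-05) and −0.17 in iR_WTA_D3 (0.0243). Relative to the unexposed mean, the exposed mean stood at −31.1%, −37.7%, −21.4%, −22.7% and −11.1% in that order of backgrounds. The call in iR_WTA_D3 was lost without exposed library 1 (adjusted p 0.105), exposed library 2 (0.125) or unexposed library 1 (0.0732), with median-of-ratios scaling (0.116), without the filter (0.0524) and when only its 2 groups were fitted (0.0883).

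LRP6 (chr12:12116025-12267044), the co-receptor that DKK1 blocks, rose with exposure in every background. Its exposed libraries in KOA held 12.1, 12.1 and 11.8 FPKM, against 8.95, 8.49 and 8.38 FPKM in unexposed ones. In iR_KOA the exposed values of 11.2, 11.9 and 11.4 FPKM stood against unexposed values of 10.3, 10.8 and 9.46 FPKM, and in iR_WTA 12.2, 11.2 and 11.8 FPKM stood against 10.4, 11.0 and 9.99 FPKM. In iR_KOA_D3 the exposed libraries held 13.0, 12.5 and 13.1 FPKM, against 10.2, 9.87 and 10.4 FPKM in the unexposed ones. The wild type with D3 gave 13.8, 13.8 and 15.1 FPKM in exposed libraries and 10.7, 10.5 and 11.4 FPKM in unexposed ones. In all 5 backgrounds the exposed libraries were above the unexposed ones. The share of all genes separated in this upward direction was not counted. Nor was a share of separated genes counted for the comparisons between unexposed groups below.

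The log2 differences of LRP6 were 0.43 in KOA (SE 0.05, limma adjusted p 4.57e-08), 0.16 in iR_KOA (0.0098), 0.31 in iR_KOA_D3 (6.61e-06), 0.15 in iR_WTA (0.0178) and 0.36 in iR_WTA_D3 (1.24e-06). The call in iR_KOA was lost without exposed library 2 (adjusted p 0.0556) or unexposed library 3 (0.0856), and when only its 2 groups were fitted (0.109). That in iR_WTA was lost without exposed library 1 (0.0950) or unexposed library 3 (0.103), and when only its 2 groups were fitted (0.0650).

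**Figure D3:**
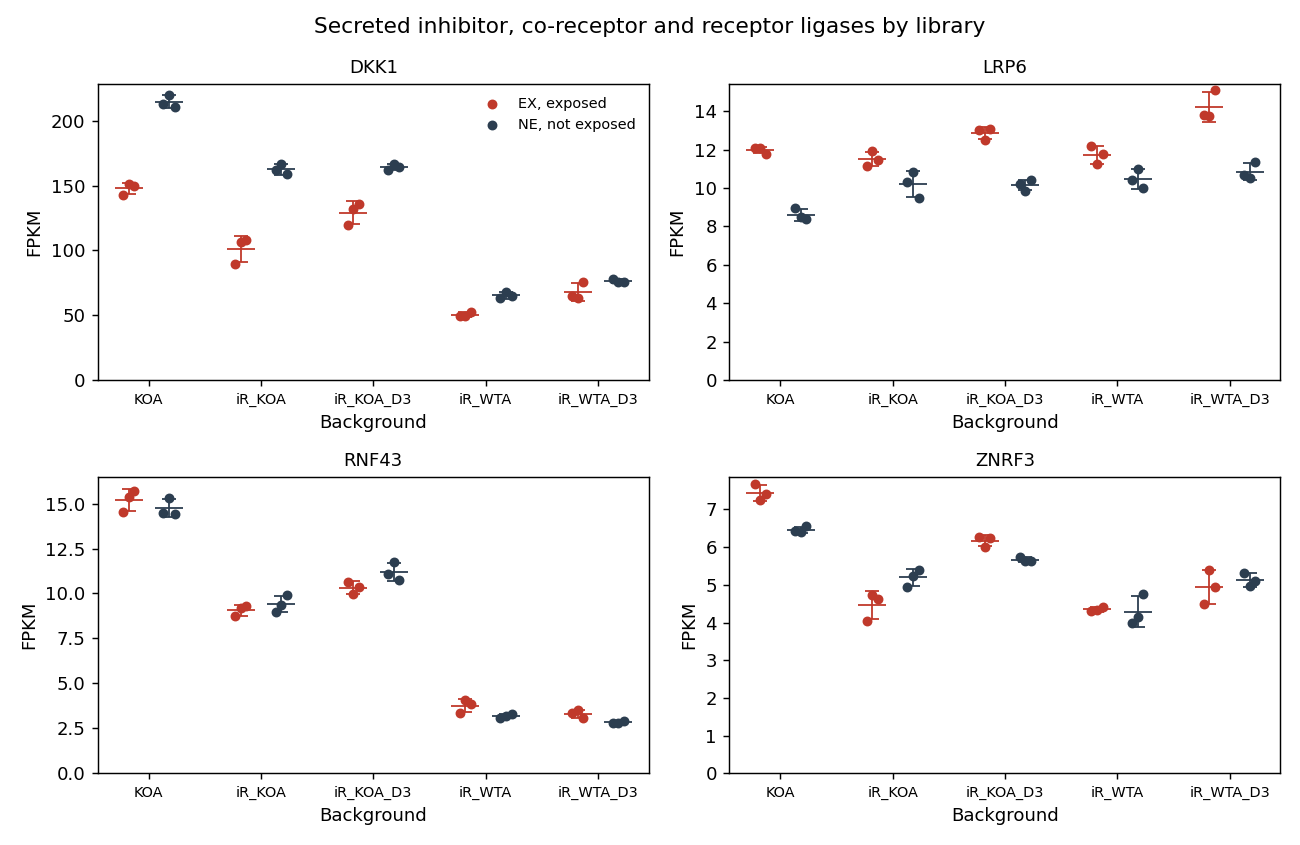
DKK1, LRP6, RNF43 and ZNRF3 in FPKM (vertical axes, from 0) in each library (points) of the 5 backgrounds, exposed on the left of each pair and unexposed on the right; horizontal marks are means and bars 1 SD (n = 3). DKK1 and RNF43 step down between the knockout and wild-type backgrounds, while LRP6 keeps to between 8.38 and 15.1 FPKM in all 30 libraries.

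RNF43 and ZNRF3, the paired receptor-removing ligases, passed the exposure test in different backgrounds. Their differences had the same sign in KOA, iR_KOA and iR_WTA and opposite signs in iR_KOA_D3 and iR_WTA_D3. A difference between the genes was not tested. RNF43 (chr17:58352500-58417534) had 3.36, 4.07 and 3.86 FPKM in exposed iR_WTA libraries, against 3.05, 3.21 and 3.29 FPKM in unexposed ones. In iR_WTA_D3 it had 3.35, 3.52 and 3.08 FPKM when exposed and 2.82, 2.79 and 2.89 FPKM when not exposed. RNF43 thus rose by 0.18 (SE 0.05, limma adjusted p 0.00833) and 0.17 (0.01) on the log2 scale among the wild-type groups, with no overlap between the libraries. Each of these calls was lost without exposed library 2 (adjusted p 0.0718 in iR_WTA and 0.0549 in iR_WTA_D3) and when only its 2 groups were fitted (0.0787 and 0.0674). In the 3 knockout backgrounds RNF43 did not pass the test, with exposed means of 15.2, 9.06 and 10.3 FPKM in KOA, iR_KOA and iR_KOA_D3, against unexposed means of 14.7, 9.41 and 11.2 FPKM.

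ZNRF3 (chr22:28883572-29057488) had 7.68, 7.26 and 7.40 FPKM in exposed KOA libraries, against 6.44, 6.39 and 6.56 FPKM in unexposed ones, a rise of 0.18 (SE 0.05, limma adjusted p 0.0096). In iR_KOA it ran the other way, with 4.04, 4.72 and 4.62 FPKM in exposed libraries and 4.96, 5.25 and 5.41 FPKM in unexposed ones. That fall by 0.19 on the log2 scale had an adjusted p of 0.0095, and was lost without exposed library 1 (0.0817) and when only its 2 groups were fitted (0.101). With D3 the knockout had 6.26, 6.01 and 6.24 FPKM when exposed, against 5.74, 5.64 and 5.62 FPKM when not exposed, which did not pass the test except under quantile normalization (0.14, 0.0335). The wild-type backgrounds did not pass it either, with exposed means of 4.35 and 4.94 FPKM in iR_WTA and iR_WTA_D3 against unexposed means of 4.29 and 5.13 FPKM.

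Inside the cell, AXIN1 and CTNNB1 passed the test in some of the backgrounds. AXIN1 (chr16:287440-352723), the constitutive counterpart of AXIN2, had 7.06, 6.41 and 7.07 FPKM in exposed iR_KOA libraries and 8.01, 7.73 and 8.78 FPKM in unexposed ones. In iR_KOA_D3 it had 7.00, 6.14 and 6.74 FPKM when exposed, against 7.38, 7.83 and 7.72 FPKM when not exposed. AXIN1 fell by 0.22 (SE 0.07, limma adjusted p 0.0106) and 0.18 (0.0277) on the log2 scale in these backgrounds. Its libraries did not overlap, as was so for 25.5% of all genes in iR_KOA and 33.3% in iR_KOA_D3 in this direction. The first call was lost without exposed library 2 (adjusted p 0.0663) or unexposed library 3 (0.0687), and the second without exposed library 2 (0.143), unexposed library 2 (0.0867) or unexposed library 3 (0.0644). The first was also lost when only its 2 groups were fitted (0.0526), and the second with median-of-ratios scaling (0.0579), quantile normalization (0.0597) or no filter (0.0565). In KOA, iR_WTA and iR_WTA_D3 the exposed means were 6.96, 7.54 and 6.88 FPKM, against 7.08, 7.62 and 7.17 FPKM unexposed, with no call; in iR_WTA_D3 a fall appeared when exposed library 2 was left out (0.0434).

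CTNNB1 (chr3:41199505-41240443), which encodes β-catenin, had the smallest median SD relative to its mean of the members. Its exposed libraries in iR_KOA held 51.0, 51.0 and 51.2 FPKM, against 56.2, 53.6 and 54.9 FPKM in unexposed ones. In iR_KOA_D3 they held 49.7, 49.7 and 49.8 FPKM, against 54.4, 53.5 and 53.2 FPKM, and in iR_WTA 64.9, 64.8 and 67.0 FPKM against 71.1, 69.0 and 73.2 FPKM. The gene fell in these 3 backgrounds by 0.10 (SE 0.03, limma adjusted p 0.0049), 0.11 (0.00213) and 0.12 (0.00221), with the exposed mean at −7.02%, −7.34% and −7.80% relative to the unexposed mean. The median difference over all 12086 genes was itself −0.05, −0.04 and −0.04 in these comparisons. Median-of-ratios scaling removed the call in iR_KOA (adjusted p 0.0808), and fitting only the 2 groups removed it in iR_KOA (0.133) and iR_WTA (0.0502). In KOA the exposed mean was 52.7 FPKM against 54.1 FPKM, and in iR_WTA_D3 it was 66.7 FPKM against 69.8 FPKM (adjusted p 0.0549, and 0.0288 without the filter), both short of the threshold.

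Of the TCF/LEF factors among the members, TCF7L2 (chr10:112950247-113167678) was the most abundant per length and passed the exposure test in 1 background. TCF7L1, a further TCF/LEF factor, is not a member and was counted with the nuclear cofactors below. Of its exposure differences only that in iR_KOA_D3 was eligible to be named, a fall by 0.42 (limma adjusted p 0.00336). In iR_KOA_D3 TCF7L2 had 3.26, 3.71 and 3.80 FPKM when exposed, against 3.98, 4.14 and 4.43 FPKM when not exposed, a fall by 0.18 (SE 0.05, limma adjusted p 0.0103). The call of TCF7L2 was lost without exposed library 1 (adjusted p 0.0926) or unexposed library 3 (0.0593), and under quantile normalization (0.0753). In KOA, iR_KOA, iR_WTA and iR_WTA_D3 its exposed means were 4.79, 4.66, 6.88 and 6.10 FPKM, against unexposed means of 4.55, 4.50, 6.46 and 5.95 FPKM.

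TCF7 (chr5:134108218-134148210) stayed between 0.37 and 0.75 FPKM, from 196 to 398 reads per library, and its exposed mean stood at −3.92% to −19.0% relative to its unexposed mean in the 5 backgrounds. On the recovered reads, with limma's voom, no exposure contrast of TCF7 passed, the smallest adjusted p being 0.0596 in iR_WTA. LEF1 (chr4:108047548-108168932) had 0 to 8 reads per library and was listed at 0 in 8 of the 30 libraries, so no change could be read from it. TCF7 overlaps VDAC1 (102 to 151 FPKM) in RefSeq. Antisense genes overlap RNF43 (TSPOAP1-AS1, 0.17 to 2.90 FPKM), ZNRF3 (ZNRF3-AS1, at most 0.125 FPKM) and LEF1 (LEF1-AS1, at most 0.10 FPKM). Since no strand setting of the counting is stated, the members' reads and those of their partners cannot be told apart.

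Whether a response to exposure differed between backgrounds was tested as an interaction over the 7 members other than AXIN2. Between genotypes, no member passed with iR alone (0.538% of all genes did), although 4 of 7 had an unadjusted p under 0.05 in limma, and voom passed 0 as well. With iR and D3, RNF43 passed (2.38% of all genes): its exposure difference was 0.28 lower on the log2 scale in the knockout than in the wild type (interaction −0.28, SE 0.07, adjusted p 0.0401). That call was lost without any of 9 of the 12 libraries: knockout exposed 2 or 3, knockout unexposed 1 or 2, and wild type exposed 1 or 2 or unexposed 1, 2 or 3 (adjusted p 0.0636 to 0.128), without the filter (0.0549) and when only its groups were fitted (0.105). For AXIN2 the same 2 interactions were −0.41 and −0.03, given without a test. With a pseudocount of 0.1 they were −0.50 and 0.02, and on recovered reads −0.51 and 0.03, so that the value with D3 had no stable sign.

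Within the knockout, iR went with a lower exposure response of ZNRF3 (interaction −0.36, SE 0.08, limma adjusted p 0.00364) and of LRP6 (−0.27, SE 0.07, 0.0126), where 5.08% of all genes passed. For ZNRF3 this is a rise in KOA and a fall in iR_KOA, and for LRP6 a rise in both that was smaller with iR. The LRP6 call was lost without unexposed iR_KOA library 2 (adjusted p 0.0516) and when only its groups were fitted (0.0517). AXIN2 had an interaction of 0.03 here, and of −0.08 with a pseudocount of 0.1. RSRP1 itself had means of 6.30 FPKM in exposed and 7.68 FPKM in unexposed iR_KOA. In KOA its means were 2.16 and 2.43 FPKM, and the part of this in the interactions was not tested.

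D3 in the iR knockout went with a weaker exposure fall of DKK1 (interaction 0.33, SE 0.09, limma adjusted p 0.0265) and a higher response of ZNRF3 (0.29, SE 0.08, 0.0318), where 4.14% of all genes passed. The DKK1 call was lost without exposed iR_KOA library 1, unexposed iR_KOA library 1 or 2, exposed iR_KOA_D3 library 2 or 3, or unexposed iR_KOA_D3 library 1 (adjusted p 0.0559 to 0.0753), and with quantile normalization (0.218). That of ZNRF3 was lost without exposed iR_KOA library 1, unexposed iR_KOA library 2, exposed iR_KOA_D3 library 1 or 3, or any unexposed iR_KOA_D3 library (0.0518 to 0.0779). Both were lost without the filter (0.0597 for DKK1 and 0.0527 for ZNRF3) and when only their groups were fitted (0.111 and 0.0961). AXIN2 had 0.41 on the same contrast, and 0.64 with a pseudocount of 0.1. In the iR wild type, no member passed the interaction of exposure and D3 (1.67% of all genes did), with 2 of 7 at an unadjusted p under 0.05 in limma and 0 passing in voom, and AXIN2 at 0.03, or 0.12 with a pseudocount of 0.1.

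Without exposure, the knockout differed from the wild type in 6 of the 8 fitted members both with iR (65.3% of all genes passed) and with iR and D3 (69.1%). DKK1, RNF43, AXIN2 and ZNRF3 were higher in the knockout, and CTNNB1 and TCF7L2 lower. DKK1 had 162, 167 and 159 FPKM in iR_KOA libraries, against 63.0, 68.0 and 64.8 FPKM in iR_WTA ones, and rose by 1.30 (SE 0.06, limma adjusted p 5.95e-16). RNF43 had 8.98, 9.36 and 9.89 FPKM in iR_KOA and 3.05, 3.21 and 3.29 FPKM in iR_WTA, a rise of 1.32 (SE 0.05, 1.96e-17). AXIN2 was higher by 0.49 (SE 0.07, 1.40e-06). With D3 the rises were 1.10 for DKK1 (1.76e-14), 1.67 for RNF43 (9.03e-20) and 0.40 for AXIN2 (2.05e-05), and the 3 libraries of each genotype did not overlap for any of them. The unexposed iR_KOA libraries also entered the choice of AXIN2. Its value with iR alone, and the count of 6 there, are therefore not free of that choice. The comparison with D3 shares no library with it. All comparisons without exposure use unexposed libraries that the exposure contrasts use too.

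ZNRF3 had 4.96, 5.25 and 5.41 FPKM in unexposed iR_KOA libraries, against 3.98, 4.15 and 4.75 FPKM in iR_WTA ones, a rise of 0.23 (SE 0.05, limma adjusted p 0.000563). With D3 the rise was 0.12 (0.0491), and it was lost without iR_KOA_D3 library 1, 2 or 3 or iR_WTA_D3 library 2 or 3 (adjusted p 0.0754 to 0.149), with a pseudocount of 0.1 (0.0530) or without the filter (0.0726). TCF7L2 was lower in the knockout, with 4.41, 4.52 and 4.56 FPKM in iR_KOA and 6.17, 6.78 and 6.44 FPKM in iR_WTA (difference −0.44, SE 0.05, 1.24e-07), and −0.42 with D3 (1.91e-07). CTNNB1 differed by −0.37 in both comparisons (9.29e-12 and 5.31e-12), with 56.2, 53.6 and 54.9 FPKM in iR_KOA and 71.1, 69.0 and 73.2 FPKM in iR_WTA. AXIN1 and LRP6 did not pass, with means of 8.17 and 10.2 FPKM in iR_KOA against 7.62 and 10.5 FPKM in iR_WTA. With D3, AXIN1 passed under median-of-ratios scaling (0.17, 0.0267) and quantile normalization (0.15, 0.0441). On recovered reads TCF7 was 0.34 higher with iR (voom adjusted p 0.00827) and 0.28 lower with iR and D3 (−0.28, 0.0329). The summed level of the other-cell-type markers moved with genotype, at 42.4 to 48.0 FPKM in unexposed iR_KOA and 31.4 to 33.7 FPKM in iR_WTA, and so did the A549 markers, at 10601 to 10682 FPKM in unexposed iR_KOA and 7784 to 8014 FPKM in iR_WTA. The mitochondrial share was 29.4% ± 1.2 in unexposed iR_KOA_D3 and 22.9% ± 0.4 in iR_WTA_D3, and 24.6% ± 0.3 in iR_KOA and 21.1% ± 1.1 in iR_WTA (SD, n = 3). The part of these in the genotype differences was not tested.

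**Figure D4:**
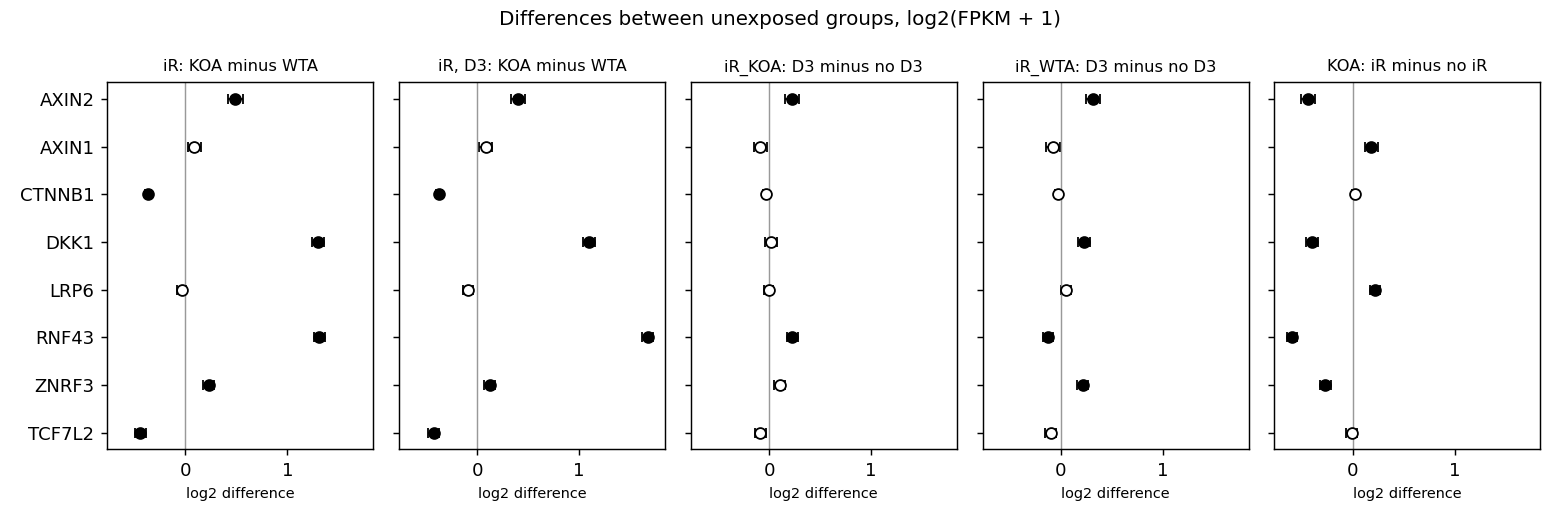
Difference in log2(FPKM + 1) (horizontal axis) between unexposed groups for the 8 fitted members (vertical axis): knockout minus wild type with iR and with iR and D3, D3 minus no D3 in each genotype, and iR minus no iR in the knockout (panels); bars are SE from the limma fit. Filled circles passed an adjusted p of 0.05; DKK1 and RNF43 stand farthest to the right in both genotype panels, at 1.10 to 1.67.

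AXIN2 was higher with D3 in unexposed cells of both genotypes. In the knockout AXIN2 had 5.06, 4.81 and 4.62 FPKM in iR_KOA_D3, against 3.95, 3.50 and 4.54 FPKM in iR_KOA (difference 0.23, SE 0.07, limma adjusted p 0.0095). The libraries did not overlap, but the call was lost without iR_KOA library 2 (adjusted p 0.0924), and the iR_KOA libraries also entered the choice of AXIN2. Mitochondrially encoded genes made up 29.4% ± 1.2 of the FPKM sum in unexposed iR_KOA_D3 and 24.6% ± 0.3 in unexposed iR_KOA (SD, n = 3). In the wild type AXIN2 had 3.44, 3.50 and 3.29 FPKM in iR_WTA_D3 and 2.38, 2.63 and 2.63 FPKM in iR_WTA (0.31, 0.000704). The interaction of D3 and genotype did not pass for AXIN2 (−0.09, SE 0.10, 0.620), and its value was 0.02 under quantile normalization. In the wild type the other-cell-type markers summed to 39.9 to 41.3 FPKM in unexposed iR_WTA_D3 and 31.4 to 33.7 FPKM in unexposed iR_WTA, and the A549 markers to 8959 to 9014 FPKM and 7784 to 8014 FPKM. The part of these in the members' D3 differences was not tested.

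Beside AXIN2, whose choice used the unexposed iR_KOA libraries, RNF43 passed the D3 test in the knockout, making 2 of 8 members (53.7% of all genes). In the wild type DKK1, RNF43 and ZNRF3 passed it, making 4 of 8 with AXIN2 (48.7%). RNF43 moved in opposite directions: it had 11.1, 11.8 and 10.8 FPKM in iR_KOA_D3 against 8.98, 9.36 and 9.89 FPKM in iR_KOA (0.23, SE 0.05, limma adjusted p 0.000526). In the wild type it had 2.82, 2.79 and 2.89 FPKM in iR_WTA_D3 against 3.05, 3.21 and 3.29 FPKM in iR_WTA (−0.13, 0.0459). The wild-type call did not survive the loss of iR_WTA library 2 or 3 or of any iR_WTA_D3 library (adjusted p 0.0617 to 0.145), no filter (0.0729), median-of-ratios scaling (0.0830), fitting only its groups (0.0605) or voom (0.0646). RNF43 was the 1 member past the interaction of D3 and genotype (0.36, SE 0.07, 0.000953; 17.5% of all genes); fitted on its groups alone, DKK1 passed too (−0.21, 0.00774). ZNRF3 with D3 in the knockout passed only under median-of-ratios scaling (0.19, 0.00591) and quantile normalization (0.17, 0.00941). On recovered reads TCF7 fell by 0.42 with D3 in the knockout (voom adjusted p 0.00225), and its interaction of D3 and genotype was −0.62 (0.00637). DKK1 rose by 0.22 in the wild type (0.00339), with 77.7, 75.4 and 75.8 FPKM in iR_WTA_D3 and 63.0, 68.0 and 64.8 FPKM in iR_WTA. ZNRF3 rose by 0.22 there (0.00184), with 5.33, 4.96 and 5.11 FPKM in iR_WTA_D3 and 3.98, 4.15 and 4.75 FPKM in iR_WTA.

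The label iR in unexposed knockout cells went with 6 of 8 members past the test (38.5% of all genes): AXIN2, RNF43, DKK1 and ZNRF3 were lower, and LRP6 and AXIN1 higher. AXIN2 had 3.95, 3.50 and 4.54 FPKM in iR_KOA, against 5.83, 5.58 and 5.83 FPKM in KOA (−0.44, SE 0.07, limma adjusted p 3.13e-05). Both groups entered the choice of AXIN2, so neither its p-value nor the count of 6 is free of that choice. RNF43 had 8.98, 9.36 and 9.89 FPKM in iR_KOA and 14.5, 15.3 and 14.4 FPKM in KOA (−0.60, SE 0.05, 1.81e-09). DKK1 was lower by 0.40 (−0.40, 1.13e-05) and ZNRF3 by 0.27 (−0.27, 0.000369), each without overlap. LRP6 was higher in iR_KOA, with 10.3, 10.8 and 9.46 FPKM against 8.95, 8.49 and 8.38 FPKM in KOA (0.22, 0.00062). AXIN1 was higher by 0.18 (0.0322), a call lost without KOA library 1 or 2 or iR_KOA library 1 or 3 (adjusted p 0.0517 to 0.144) or without the filter (0.0630). Mitochondrially encoded genes made up 24.6% ± 0.3 of the FPKM sum in iR_KOA and 28.4% ± 1.3 in KOA (SD, n = 3). RSRP1 itself had a mean of 7.68 FPKM in unexposed iR_KOA and 2.43 FPKM in unexposed KOA. The part of these in the members' differences with iR was not tested.

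The wider pathway was described with 6 lists that leave out the members. The lists were written with earlier results of these data known, so the p-values of their genes are not free of that choice. Under exposure, given in the order KOA, iR_KOA, iR_KOA_D3, iR_WTA and iR_WTA_D3, the 18 tested of 26 target genes had 8, 8, 6, 8 and 5 rises and 5, 5, 5, 2 and 2 falls. Of all 12086 genes, 18.8%, 13.1%, 17.3%, 11.4% and 15.3% rose and 22.7%, 22.3%, 27.8%, 17.2% and 26.5% fell in the same comparisons. Here and in the lists below, only the called genes with the largest differences in a comparison were eligible to be named. A background missing for a gene therefore does not mean that the gene had no call there. The targets named here are rises, and those that fell are given by their counts only. AXIN2 was lower in every background, and a relation of these rises to its level was not tested. MYC, a growth-promoting transcription factor, rose by 0.62 in iR_KOA (limma adjusted p 1.85e-08), 0.82 in iR_KOA_D3 (5.04e-11), 0.76 in iR_WTA (5.70e-10) and 0.70 in iR_WTA_D3 (1.24e-09). BMP4, a secreted growth factor, rose by 1.31 in KOA (1.68e-12), 0.61 in iR_KOA (2.82e-06) and 0.80 in iR_WTA (5.28e-08). SOX9 rose by 0.90 in iR_KOA_D3 (3.26e-10) and 1.06 in iR_WTA_D3 (2.61e-11). The median difference over the tested targets ran from −0.02 to 0.10, beside −0.05 to −0.02 over all genes.

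Of the 20 destruction-complex and Dishevelled genes tested of 22, 7, 6, 7, 9 and 7 rose and 4, 2, 4, 3 and 4 fell in the same order, against 18.8%, 13.1%, 17.3%, 11.4% and 15.3% of all genes that rose and 22.7%, 22.3%, 27.8%, 17.2% and 26.5% that fell. When only the 2 groups of a comparison were fitted, 4 rose and 1 fell in iR_KOA, and 4 rose and 3 fell in iR_WTA_D3. TNKS, whose product marks AXIN proteins for degradation, rose by 0.45 in KOA (limma adjusted p 7.60e-09), 0.33 in iR_KOA_D3 (1.25e-06), 0.26 in iR_WTA (6.68e-05) and 0.30 in iR_WTA_D3 (5.26e-06). DVL2, a Dishevelled protein that relays the receptor signal, fell by 0.49 in KOA (1.16e-07), 0.59 in iR_KOA_D3 (7.75e-09) and 0.32 in iR_WTA_D3 (6.19e-05). AMER1, which tethers the complex to the membrane, fell by 0.48 in KOA (1.22e-06), 0.35 in iR_KOA (0.000198) and 0.37 in iR_WTA (9.27e-05).

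At the surface, 2, 2, 1, 2 and 3 of 11 receptors and co-receptors tested of 15 rose and 3, 3, 4, 4 and 4 fell. The all-gene shares for this and the next lists are those already given, 11.4% to 18.8% for rises and 17.2% to 27.8% for falls. Fitted on its 2 groups alone, iR_KOA had 1 receptor that rose and 1 that fell. The Frizzled receptor FZD7 fell by 0.41 in KOA (limma adjusted p 4.14e-07), 0.38 in iR_KOA (3.46e-06), 0.32 in iR_KOA_D3 (1.88e-05) and 0.33 in iR_WTA_D3 (1.11e-05). Of 6 ligand genes tested of 20, 0, 0, 1, 0 and 0 rose and 1, 1, 1, 0 and 1 fell. In iR_WTA none passed in limma or voom, and 1 had an unadjusted p under 0.05 in limma. The rise in iR_KOA_D3 was lost with a replicate block and in voom, which left 0 rises and 1 fall, and in iR_WTA_D3 both gave 2 falls. WNT9A fell by 0.83 in KOA (2.74e-10), 0.44 in iR_KOA (1.71e-05) and 0.47 in iR_KOA_D3 (2.94e-06). Of 7 secreted inhibitors and R-spondin genes tested of 24, 1, 1, 2, 0 and 2 rose and 1, 2, 2, 1 and 0 fell. In iR_KOA 0 rose and 1 fell without the filter or with a pseudocount of 0.1, and 0 passed when only its 2 groups were fitted. The fall in iR_WTA was lost without the filter, with a replicate block, when only its 2 groups were fitted and under both scalings. LGR4, an R-spondin receptor that counters RNF43 and ZNRF3, rose by 0.26 in KOA (0.00169), 0.16 in iR_KOA (0.0497), 0.35 in iR_KOA_D3 (9.34e-05) and 0.34 in iR_WTA_D3 (0.00014). Its call in iR_KOA was lost with a pseudocount of 0.1 (adjusted p 0.0508), without the filter (0.106) and when only its 2 groups were fitted (0.182). Among 21 nuclear cofactors, all tested, 6, 3, 3, 3 and 5 rose and 2, 3, 6, 0 and 3 fell. Voom added 2 falls in iR_WTA, and fitting only the 2 groups left 3 rises and 1 fall in iR_WTA_D3. BCL9, which links β-catenin to the transcription machinery, fell by 0.77 in KOA (1.04e-09), 0.43 in iR_KOA (2.03e-05), 0.69 in iR_KOA_D3 (8.98e-09) and 0.38 in iR_WTA_D3 (6.84e-05).

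Between unexposed genotypes with iR, 5 of 18 targets were higher and 12 lower in the knockout, against 27.9% of all genes higher and 37.4% lower. The targets' median was −0.27 beside −0.06 over all genes, while AXIN2, DKK1 and RNF43 were higher. NRCAM (2.37, limma adjusted p 2.84e-21) and MMP7 (1.95, 1.11e-22) were higher and FOSL1 lower (−1.82, 8.76e-16). With D3, 5 targets were higher and 11 lower, against 24.8% of all genes higher and 44.3% lower, with a median of −0.44 beside −0.11 over all genes. Of the 11 receptors, 5 were higher and 3 lower with iR, among them FZD7 (1.26, 3.66e-17) and FZD8 (−2.46, 3.40e-21), both Frizzled receptors. LGR6, a relative of LGR4, was higher (1.45, 1.12e-17) and the secreted inhibitor SFRP1 lower (−1.34, 1.85e-20). Ligands had 4 of 6 higher and 1 lower, destruction-complex genes 3 of 20 higher and 10 lower, and nuclear cofactors 6 of 21 in each direction, with the corepressor TLE3 at −1.46 (8.59e-18). The TCF/LEF factor TCF7L1, counted with these cofactors, was higher in the knockout, by 1.03 with iR (9.85e-09) and 1.12 with iR and D3 (1.81e-09). TCF7L2 was lower in the same comparisons.

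Among the other fitted genes, those whose 10 group means followed AXIN2 most closely on the log2 scale were OSBPL5 (Pearson r 0.946), ZNF792 (0.945), SLC25A26 (0.945), C17orf97 (0.943) and XYLT2 (0.943). OSBPL5 had a mean of 1.26 FPKM in exposed and 2.37 FPKM in unexposed KOA libraries, and 0.75 FPKM in exposed and 1.20 FPKM in unexposed iR_WTA libraries. Among the members, DKK1 came nearest to AXIN2 (0.736) and LRP6 ran most strongly against it (−0.720). ZNRF3 (0.479), RNF43 (0.421) and TCF7L2 (−0.478) lay between. These values describe 10 groups that share exposure and genotype, and the exposed and unexposed means that chose AXIN2 are among them.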

How the data were processed

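RNA-seq of 30 A549 libraries in 10 groups of 3 was analysed. The authors deposited 1 FPKM value per gene and library; per the submitters' processing notes, fastp, HISAT2, HTSeq and GRCh38 were used, with roles, versions, annotation and strand setting not given in the sources used here. Columns were assigned to samples by name, and 6 columns matching no sample were not used. FPKM corrects for depth and length, not for composition. Values were exact multiples of what 1 read contributes: 26799 of 26801 genes gave whole reads in every library (tolerance 0.01), with implied totals of 34620445 to 38939339.

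Values were fitted as log2(FPKM + 1) for 12086 genes (3 or more libraries at 1 FPKM or above), in a single limma 3.58.1 model of all 10 groups (R 4.3.3, mean-variance trend, 20 residual degrees of freedom). Tests were two-sided, adjusted by Benjamini-Hochberg within each of 16 comparisons, with a threshold of 0.05, and the fit was tested on simulated data. Differences on this scale understate changes of low genes. The members and gene lists were chosen with earlier results of these data known. All members are named, up to 3 called genes per list and comparison with the largest differences were eligible to be named, and the 5 genes most like AXIN2 are given. Of the list names, those not matched by symbol or synonym (WNT8A, CDX1, CDX4, CD3E, MS4A1 and SFTPA1) were left out. Same-numbered libraries correlated above 0.1 in every pair (0.115, 0.156 and 0.168) only for exposure in iR_KOA_D3. No label says what a shared number stands for, so no pairing is established there. A block there changed no member's call. Alternatives were another pseudocount, no filter, 2 scalings, only the compared groups, a replicate block, voom on recovered reads and leaving out each library.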

Additional observations from a re-analysis of the deposited data

Results flagged for a closer look

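In all, 6 results differed between backgrounds in a test of the difference itself, as interactions in the limma fit. Of all genes, 2.38% passed for exposure by genotype with iR and D3, and 5.08% for exposure by iR. The shares were 4.14% for exposure by D3 in the iR knockout and 17.5% for D3 by genotype. No member passed for exposure by genotype with iR alone or for exposure by D3 in the iR wild type. RNF43 responded to exposure differently in the 2 genotypes with iR and D3 (interaction −0.278, SE 0.073, adjusted p 0.0401). ZNRF3 (−0.364, SE 0.076, 0.00364) and LRP6 (−0.274, SE 0.066, 0.0126) responded differently to exposure with and without iR in the knockout. DKK1 (0.334, SE 0.085, 0.0265) and ZNRF3 (0.290, SE 0.076, 0.0318) responded differently with and without D3 in the iR knockout. RNF43 differed between genotypes in its change with D3 in unexposed cells (0.356, SE 0.073, 0.000953). Every one but ZNRF3 in exposure by iR and RNF43 in D3 by genotype lost its call without at least 1 library, as named above. The same calls were lost when only the compared groups were fitted, and all of these but that of LRP6 were lost without the filter.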

How the results depend on the processing

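Of 118 tested results for single members, 92 kept direction and call under every alternative run. Leaving out 1 library ended the call in 55 of 966 recomputed results and added 1; the other alternatives ended 31 of 833, added 7 and turned 1. A pseudocount of 0.1 gave AXIN2 exposure differences of −1.33 in KOA, −1.40 in iR_KOA, −0.76 in iR_KOA_D3, −0.90 in iR_WTA and −0.78 in iR_WTA_D3. Voom on recovered reads, added after seeing the data, gave −1.36, −1.47, −0.78, −0.95 and −0.81; both alternatives shrink low values less. When only the compared groups were fitted, with fewer libraries for the spread, 1 member passed for exposure in iR_KOA, in iR_WTA and in iR_WTA_D3 and for exposure by iR, 0 for exposure by genotype with D3 and for exposure by D3 in the knockout, and 2 for D3 by genotype. Without the filter, which adds TCF7 and LEF1, 4 passed for D3 in the knockout, 2 for D3 by genotype, and 0 for exposure by genotype with D3 and for exposure by D3 in the knockout. The 4 include TCF7 (limma adjusted p 0.00604) and LEF1 (0.0309), the latter at 0 to 8 reads per library, from which no change could be read. Quantile normalization gave 4 for D3 in the knockout and 1 for exposure by D3 in the knockout, and turned CTNNB1 with D3 in the knockout to 0.069 (adjusted p 0.0431), against an uncalled −0.03; the cause was not tested. Leaving out 1 library gave 3 to 5 members for exposure in iR_KOA and in iR_KOA_D3, 1 to 2 for D3 in the knockout and for exposure by iR, 0 to 1 for exposure by genotype with D3, and 0 to 2 for exposure by D3 in the knockout.

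A replicate block over all groups changed none of 144 results for members, with 5 members past for exposure in iR_KOA_D3. A block within iR_KOA_D3, added after seeing the data, also gave 5. No label says what a shared number stands for. Under exposure in KOA and in iR_KOA_D3, 6 of 6 libraries correlated best with their own number, as a hint from the data. The planned edgeR test on recovered reads was not run, since the deposited unit is FPKM. Depth limits LEF1, at 0 to 8 reads per library, and TCF7, at 196 to 398.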
